A study of Arabidopsis thaliana with 24 samples.

Results

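Long introns, those of 500 bases or more in the width column of the deposited intron tables, numbered 4976 of 120717 annotated introns (4.12%) and lay in 4428 genes of Arabidopsis thaliana. They were chosen by width alone, without reference to their read counts, and each was read relative to the count of its host gene in the same sample. Plants of 4 groups had been sequenced with 3 replicates each. The lsm4 mutant (lsm4-1) and its Col wild type (WT Col) grew on Murashige and Skoog agarose medium and were harvested on day 15. The lsm5 mutant (sad1) and its C24 wild type (WT C24) grew on soil and were harvested on day 30, before bolting. Plants of all groups were kept at 22 °C in continuous light, after stratification for 4 days, and the labels name no other treatment. The series' own design text gives 1 growth time for all plants, and the sample protocols were followed here. Whether the replicates came from separate growths is not given in the labels, so p-values measure only the spread between these samples.

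An intron is removed from the pre-mRNA by the spliceosome, a machine of small nuclear RNAs and proteins. The U6 small nuclear RNA pairs with the first bases of the intron, the 5′ splice site, and a nuclear ring of Sm-like proteins that includes LSM4 and LSM5 binds and stabilises U6. A related cytoplasmic ring shares these subunits and promotes decapping of mRNA before its decay. Introns of plants are short beside those of vertebrates, and long ones often stand near the start of a gene.

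The median width of the long introns was 664 bases, against 99 bases over all introns, and 858 of them reached 1000 bases. Of those with a known strand, 49.6% were the 5′-most intron of their gene, against 18.4% of all introns. A share of 12.2% lay before the coding region and is called leader introns here, against 3.26% of all introns. Of the long introns with a known strand, 97.4% began with GT and ended in AG. Many long introns are not intron only: 1172 overlapped an annotated exon of their own gene in another transcript form, and 482 overlapped an exon of another gene. A set of 3498 nuclear long introns (70.3%) overlapped no annotated exon or pseudogene, and these are called introns free of annotated exons. Strand is not marked by the kit, and an overlapping or antisense gene could not be told from the intron by its reads.

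The splice sites of 13 introns on which the results turn are shown because the 5′ splice site is the stretch that U6 contacts. They come from the RefSeq reference (TAIR10.1). Introns are numbered as deposited, by coordinate, and a minus-strand gene is thus numbered from its 3′ end. Each 5′ end below gives 3 bases of exon and 27 of intron, with the last 3 exon bases and the first 6 intron bases in capitals.
AT3G62860 intron 4 (chr3:23241707-23241736, minus strand): GAGGTATTTaatgctcctctgccccaatac
FAO3 intron 2 (chr3:8383687-8383716, plus strand): CGGGTATGTctcaaattctctctgttttct
AT5G37710 intron 1 (chr5:14979858-14979887, plus strand): CAGGTAAAAaaatttaaccatgttttaatg
SUA intron 13 (chr3:20077068-20077097, plus strand): TCGGTAGGGtctcaaagccaagttggttgt
ABCB2 intron 3 (chr4:13178363-13178392, plus strand): AAGGTACATctcttaacccaaacaaaccgg
TAF15 intron 4 (chr1:18630778-18630807, minus strand): AATGTAAGCattccgattaggtttgaaata
AT4G32030 intron 1 (chr4:15491284-15491313, plus strand): AAGGTAACTttctcttttccctatcgtgat
ZIF1 intron 11 (chr5:4434679-4434708, plus strand): GAGGTAAGTagttgagctagaattttctgc
SAM1 intron 1 (chr1:518376-518405, plus strand): CAGGTATTGttcttcgtattcgcttctcgt
AT4G10080 intron 1 (chr4:6301682-6301711, minus strand): AAGGTACACtatattatcattgacccttgt
OTLD1 intron 13 (chr2:11704030-11704059, minus strand): CCGGTGAGCttttccatactgtggtcaact
TUB5 intron 2 (chr1:6940058-6940087, minus strand): AAGGTACTAtatatatctttttctgaattt
HPL1 intron 1 (chr4:8835983-8836012, plus strand): AAGGTTCGTacatacgttgctttgctacta
The 3′ ends of 4 of them give 27 bases of intron and 3 of exon, with the last 3 intron bases and the first exon base in capitals.
AT4G10080 intron 1 (chr4:6300577-6300606, minus strand): gtcttgggttgtttatgatctgtgCAGAag
TAF15 intron 4 (chr1:18630207-18630236, minus strand): tttttctttttgcgctaattctttCAGGtg
OTLD1 intron 13 (chr2:11702704-11702733, minus strand): ttttgtgttgtttggtcatgtttaTAGCtt
HPL1 intron 1 (chr4:8837398-8837427, plus strand): tatgtttgttacatgttataaactCAGAta
Of the 13 introns, 11 had A as the third intron base, 6 had G as the fifth, and 1 (ZIF1) began with the run GTAAGT. The last 3 intron bases were CAG in 7 and TAG in 6.

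Gene counts totalled 9402839 (WT Col 1) to 52218346 (WT Col 2) per replicate, and the long introns held 32085 to 203430 of the intron counts in these same samples. On the second principal component of the gene counts, the samples WT Col 1, lsm4 2, WT C24 2 and lsm5 3 lay away from the other replicates of their groups (called the samples that stood apart), and counts of calls are therefore given with and without them. In the lsm5 comparison, WT C24 2 (2.15) and lsm5 3 (-4.36) were not parted by genotype on the first component either, which held 50.4% of the variance. The other WT C24 samples lay there at -58.3 and -59.5 and the other lsm5 samples at 62 and 58. LSM4 itself stood at 421, 233 and 414 CPM (counts scaled to library size) in lsm4, against 43.3, 51.2 and 74.5 CPM in WT Col, so its total does not check the label. Of the marker lists, the 3 root markers (CASP1, RHD6 and IRT1) summed to 58.8 to 78.1 CPM in lsm4, against 123 to 201 CPM in WT Col, and to at most 0.247 CPM in lsm5, against 0.46 CPM in WT C24. By these markers both soil-grown groups held almost no root signal, so the tissue was not alike in the 2 comparisons. The 3 leaf markers (RBCS1A, LHCB1.1 and RCA) summed to 20600 to 36600 CPM in lsm4, against 33400 to 54300 CPM in WT Col, with overlapping groups. RBCS1A and RCA overlapped singly too, and LHCB1.1 did not, at 4400, 2280 and 4520 CPM in lsm4, against 8390, 9670 and 8950 CPM in WT Col. The leaf sums also overlapped in the other comparison, at 30300 to 52100 CPM in lsm5, against 37000 to 65100 CPM in WT C24. The 3 floral organ markers (AP1, AP3 and AG) summed to 3.00 to 3.43 CPM in lsm5, against 0.113 to 0.537 CPM in WT C24. Of these, AG overlapped between the groups, at 0.363, 0.309 and 0.295 CPM in lsm5, against 0.113, 0.0609 and 0.537 CPM in WT C24. The part of these marker differences in the results that follow was not tested. In samples of mixed tissue, fewer cells of a type and less RNA per cell cannot be told apart.

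Taken as a sum, the long introns carried a like share of their host genes' reads in each mutant and its wild type. Their reads came to 3.06%, 2.54% and 2.57% of host gene reads in lsm4 1 to 3, against 2.60%, 3.15% and 2.45% in WT Col 1 to 3. In lsm5 they came to 1.52%, 1.56% and 1.62%, against 1.52%, 1.41% and 1.56% in WT C24. The groups overlapped in both comparisons. Most of these reads lay in introns that also hold exons of other genes or of other transcript forms, or in the 42 long introns of the organellar genomes. The 10 long introns of most reads held 28.9% of all long intron reads in lsm4 and 43.5% in WT Col, and 36.5% in lsm5 and 41.8% in WT C24.

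The picture differed in the long introns free of annotated exons. There the reads came to 1.45%, 1.18% and 1.15% of host gene reads in lsm4, against 0.845%, 0.839% and 0.751% in WT Col, and every lsm4 replicate lay above every WT Col replicate. The means were 1.26% ± 0.165 and 0.812% ± 0.0526 (SD, n = 3 each), a ratio of 1.55. In lsm5 the shares were 0.750%, 0.653% and 0.622%, against 0.494%, 0.508% and 0.511% in WT C24, again without overlap (0.675% ± 0.0668 and 0.504% ± 0.00907, SD, n = 3 each; ratio 1.34). The sum over the remaining 1478 long introns was not raised in either mutant. They held 5.80%, 4.89% and 4.96% in lsm4, against 5.67%, 7.23% and 5.51% in WT Col, and 2.83%, 3.08% and 3.34% in lsm5, against 3.23%, 2.90% and 3.33% in WT C24, with overlapping groups in both. That holds for the sum and not for most single introns. Of those tested singly below, 71.6% in lsm4 and 70.8% in lsm5 had a log2 change above 0. No p is given for these sums, which run over members chosen as a set, and 3 samples against 3 cannot go below an exact two-sided p of 0.1.

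**Figure D1:**
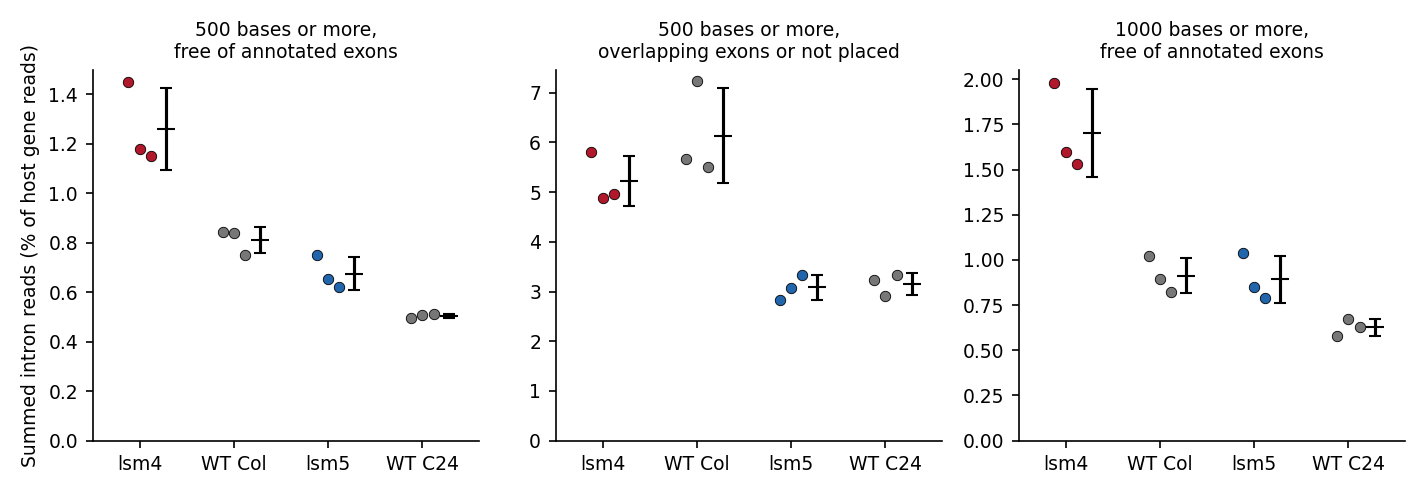
Summed reads of long introns as a percentage of the reads of their host genes (y axis) in lsm4, WT Col, lsm5 and WT C24, for long introns free of annotated exons (left), the other long introns (middle) and introns of 1000 bases or more free of annotated exons (right). Points are replicates 1 to 3 and bars the mean ± SD (n = 3); the mutants lie above their wild types in the left and right panels, with lsm4 at 1.15% to 1.45% against 0.751% to 0.845% in WT Col on the left, and the groups overlap in the middle.

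Introns under 500 bases free of annotated exons were higher by a like factor in lsm4. Their reads came to 2.22% ± 0.117 of host reads in lsm4 and 1.42% ± 0.0721 in WT Col (SD, n = 3 each), a ratio of 1.56, beside 1.55 for the long ones. In lsm5 their ratio was 1.20, with 1.61% ± 0.0961 in lsm5 and 1.34% ± 0.0400 in WT C24 (SD, n = 3 each), beside 1.34. To set the 2 width classes against each other within a sample, the reads per base of long introns, relative to their genes, were divided by those of the shorter introns. This ratio was 0.684, 0.537 and 0.581 in lsm4, against 0.613, 0.588 and 0.581 in WT Col, so the groups overlapped. It was 0.485, 0.453 and 0.386 in lsm5, against 0.403, 0.401 and 0.391 in WT C24, where they overlapped as well. By this measure a greater change of long than of shorter introns was not detectable in either mutant with 3 replicates.

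Single introns were tested with edgeR's quasi-likelihood test on the intron counts, each set against the count of its host gene (log scale, as offset). The value is called the relative intron signal, and a change of the whole transcript does not move it. An intron entered the test if its host gene had 10 counts or more in each sample and the intron had enough reads of its own, which 1278 of the 4976 long introns had in the lsm4 comparison and 711 in the lsm5 comparison. An intron could pass through the mutant's reads alone: no WT Col sample reached 10 counts in 300 of the 1278 (23.5%, against 23.9% of all introns tested), and no WT C24 sample did in 80 of the 711 (11.3%, against 9.17%). Counts and medians over the introns that passed therefore describe those introns and not all long introns. A further 749 (lsm4) and 1187 (lsm5) long introns had no read in any sample of the comparison. An intron was called at an adjusted p under 0.05 over all introns tested, long and short.

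In lsm4, 264 long introns rose relative to their host genes and 9 fell, out of 1278 tested. Over all 11439 introns tested 17.8% were called higher and 0.297% lower (18.1% in either direction), so the long introns' share of 20.7% higher lay near the background and 0.704% lower above it. The median log2 change was 0.67 over the long introns and 0.65 over all introns. With no filter on intron counts the order turned round, at 0.96 over 3639 long introns and 1.08 over all, and over those free of annotated exons at 1.11 for long and 1.14 for shorter introns (0.83 and 0.69 with the filter). When all changes were centred on that median, 68 long introns were called higher and 44 lower. Without the samples that stood apart, 372 were called higher and 16 lower. Without WT Col 2, the deepest sample, 138 were called higher and 3 lower, and without lsm4 1 the counts were 136 and 5.

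Among the long introns that passed the filter, the calls were spread unevenly between those with and without an overlapping exon. Among long introns free of annotated exons 174 of 701 rose (24.8%) and 3 fell, with a median log2 change of 0.83. Among the other long introns 90 of 577 rose (15.6%), with a median of 0.47. The median was lowest, 0.29, in those that overlapped an exon of another gene, of which 28 of 211 rose (13.3%). Of the tested introns under 500 bases free of annotated exons, 18.4% rose. No WT Col sample reached 10 counts in 29.4% of the tested long introns free of annotated exons and in 16.3% of the others. It was 10.4% in those that overlapped an exon of another gene. These shares called therefore rest in part on introns that passed through their lsm4 reads alone. The 264 introns that rose lay in 255 genes with a median log2 change of 0.17 at the gene level. Of these genes 58 were called higher in lsm4, 16 lower and 181 in neither direction, where 10.7% of all genes were called higher and 10.7% lower. Of the shorter introns tested in the same genes, 63 of 277 (22.7%) rose and none fell by the edgeR test, with a median log2 change of 0.88. In 259 genes that had tested long and shorter introns, all free of annotated exons, the long intron had the higher log2 change in 138 (53.3%), with a median difference of 0.07.

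Within the tested introns free of annotated exons, the median log2 change in lsm4 was smallest at middle widths and larger at both ends. The median log2 change was 1.08 under 80 bases, 0.60 from 100 to under 200 bases, and 0.78 from 500 to under 750 bases. It reached 0.94 from 750 to under 1000 bases and 1.09 at 1000 bases or more. The share called higher followed the same course, at 29.5%, 15.8%, 21.9% (94 of 430), 27.6% (40 of 145) and 31.7% (40 of 126) in these 5 classes. In lsm5 the medians were 0.34, 0.20, 0.32, 0.57 and 0.62 in the same classes. Introns of 1000 bases or more came to 1.98%, 1.60% and 1.53% of host reads in lsm4, against 1.02%, 0.896% and 0.825% in WT Col, a ratio of means of 1.86. They came to 1.04%, 0.852% and 0.788% in lsm5, against 0.580%, 0.671% and 0.628% in WT C24, a ratio of 1.43. Set against introns under 500 bases in the same sample, their density ratio was 0.496, 0.390 and 0.411 in lsm4, against 0.390, 0.325 and 0.340 in WT Col, so that the groups met at 0.390. It was 0.359, 0.312 and 0.258 in lsm5, against 0.243, 0.279 and 0.253 in WT C24, with overlap. The median count per sample of tested introns was 17.9 from 500 to under 750 bases and 15.8 under 80 bases.

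**Figure D2:**
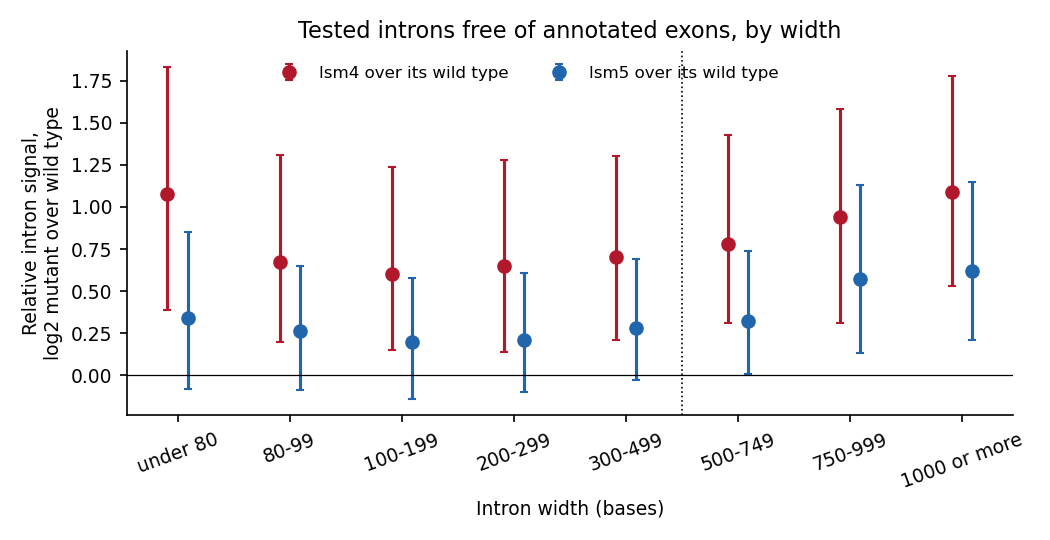
Relative intron signal (y axis, log2 mutant over its wild type) of tested introns free of annotated exons in 8 width classes in bases (x axis), for lsm4 and lsm5. Points are medians and bars run from the lower to the upper quartile over introns; to the right of the dotted line at 500 bases the lsm4 medians are 0.78, 0.94 and 1.09 and the lsm5 medians 0.32, 0.57 and 0.62.

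Leader introns are those before the coding region. The reads of the 281 long leader introns free of annotated exons came to 0.887%, 0.647% and 0.584% of host reads in lsm4, against 0.365%, 0.291% and 0.235% in WT Col, a ratio of means of 2.38 with no overlap. They came to 0.331%, 0.255% and 0.236% in lsm5, against 0.123%, 0.136% and 0.161% in WT C24, a ratio of 1.96, also with no overlap. The sums of shorter leader introns free of annotated exons were higher without overlap in both mutants too, with ratios of 2.07 in lsm4 and 1.33 in lsm5. Relative to all long introns of the same sample, the long leader introns' density was 0.734, 0.658 and 0.606 in lsm4, against 0.480, 0.383 and 0.353 in WT Col. It was 0.544, 0.479 and 0.462 in lsm5, against 0.306, 0.322 and 0.387 in WT C24, so that in both mutants every replicate lay above every wild type replicate. Only 67 of the 281 had reads enough for the edgeR test in lsm4, and in 33 of them (49.3%) no WT Col sample reached 10 counts, so that these passed through their lsm4 reads and the share called is not that of all leader introns. Of the 67, 28 rose (41.8%) and none fell, with a median log2 change of 1.35. Among shorter leader introns 40 of 139 rose (28.8%, median 1.05), where 41.7% had no WT Col sample at 10 counts. Among long introns within the coding region 145 of 620 rose (23.4%, median 0.80), where 27.6% had none. With no filter on intron counts the medians were 1.59 over 246 long leader introns, 1.32 over 1445 shorter ones and 1.07 over 2219 long introns within the coding region. Order in the gene parted the introns less: 97 of 368 long introns that came first in their gene rose (26.4%), and 77 of 333 that came later (23.1%).

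**Figure D3:**
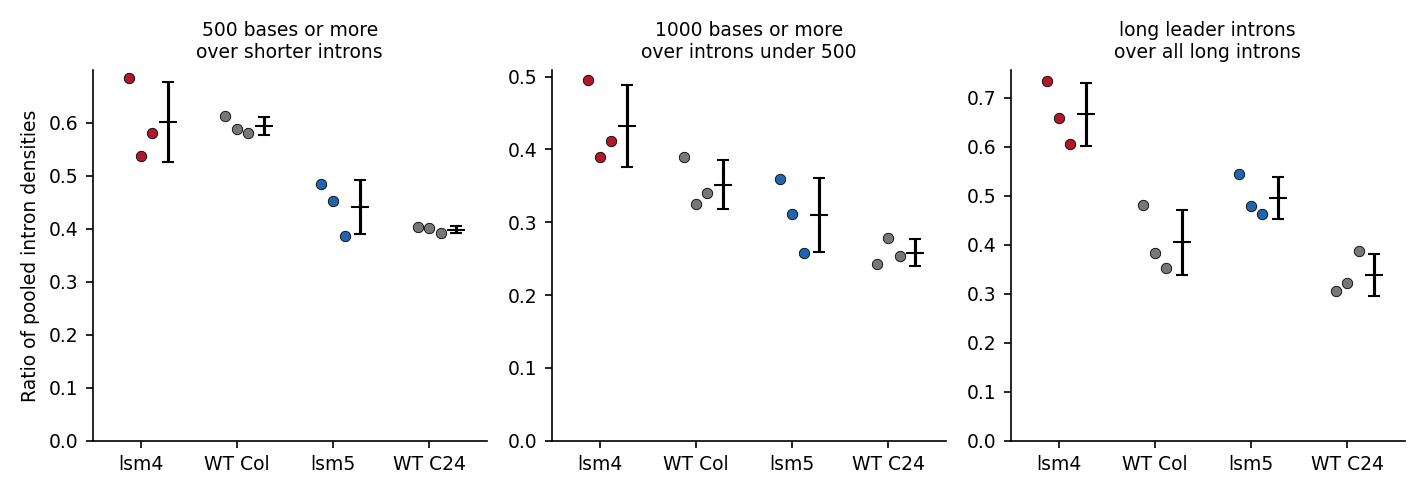
Ratios of pooled intron densities within a sample (y axis) in lsm4, WT Col, lsm5 and WT C24, for introns of 500 bases or more over shorter introns (left), introns of 1000 bases or more over introns under 500 (middle) and long leader introns over all long introns (right), all free of annotated exons. Points are replicates and bars the mean ± SD (n = 3); mutant and wild type overlap on the left, and on the right lsm4 lies at 0.606 to 0.734 against 0.353 to 0.480 in WT Col.

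The long introns with the largest fitted rises in lsm4 had no or nearly no reads in WT Col. They entered the test only through their reads in lsm4, the group where they are high, so they are described here as single introns and are no measure of how often long introns rise. In AT3G62860, an alpha/beta-hydrolase gene, intron 4 (chr3:23240753-23241733) had 34, 16 and 39 counts in lsm4 and 0 in each WT Col replicate. The intron was at least 2.94-fold higher relative to its host, taking 3 counts in WT Col as the floor (edgeR adjusted p = 0.042). The host gene itself was higher in lsm4 by 3.00 on the log2 scale, so few reads stood behind the WT Col value, and the call was lost without WT Col 2, lsm4 1 or lsm4 3, when centred on the median intron, and with DESeq2 (adjusted p = 0.063). FAO3, a long-chain fatty alcohol oxidase gene, gave a more even picture at intron 2 (chr3:8383690-8384266), with 16, 16 and 15 counts in lsm4 and 0 in each WT Col replicate. That is at least 8.83-fold higher (adjusted p = 0.0043), and the density was 4.83% ± 0.526 of that of the gene in lsm4 (SD, n = 3). Intron density here means reads per base of the intron, in percent of the reads per base of the gene. The same intron had 1, 0 and 0 counts in lsm5 and 0, 2 and 1 in WT C24. In AT5G37710, another alpha/beta-hydrolase gene, intron 1 (chr5:14979861-14980378) had 16, 12 and 14 counts in lsm4 and 0 in WT Col, at least 6.34-fold higher (adjusted p = 0.0085). AT2G25790, a leucine-rich repeat receptor-like kinase gene, had 15, 12 and 13 counts in lsm4 and 0 in WT Col at its only intron (chr2:11003143-11003660), at least 6.21-fold higher (adjusted p = 0.010). Both of these calls were lost without WT Col 2 or lsm4 1.

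Genes of RNA processing, transport and lignin synthesis were among the others. SUA, a splicing factor known to control splicing of ABI3, had 32, 22 and 23 counts in lsm4, against 1, 0 and 0 in WT Col, at intron 13 (chr3:20077071-20077629). The ratio of summed counts relative to the host was 50.4, with an exact 95% interval of 8.77 to 2010 (adjusted p = 0.0027). The interval covers counting error only and is wide because 1 read stands in the denominator. ABCB2, which encodes an ABC transporter of the P-glycoprotein class, had 32, 15 and 18 counts in lsm4, against 0, 1 and 0 in WT Col, at intron 3 (chr4:13178366-13179222), a ratio of 46.9 (8.13 to 1880, adjusted p = 0.0024). CYP98A3, a cytochrome P450 of lignin synthesis, had 24, 42 and 20 counts in lsm4, against 0, 1 and 0 in WT Col at intron 2, a ratio of 41.0 (7.17 to 1640, adjusted p = 0.0027). This intron overlaps an exon of AT2G09205 and cannot be assigned to CYP98A3 alone. XRN4, the cytoplasmic exonuclease that degrades decapped mRNA, also belonged here, with 33, 15 and 13 counts in lsm4 and 0 in WT Col at intron 1, which holds an exon of another XRN4 transcript form.

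The lowest adjusted p-values belonged to better covered introns. AT4G10080, an uncharacterised gene with 1 intron of 1129 bases (chr4:6300580-6301708), had 371, 218 and 261 intron counts in lsm4, against 11, 89 and 58 in WT Col. The intron density was 27.7%, 24.3% and 21.1% in lsm4, against 3.01%, 4.28% and 5.47% in WT Col. All lsm4 replicates lay far above the WT Col range, and the log2 change was 2.47 (SE 0.29, adjusted p = 0.00040). TAF15, a TBP-associated factor of the general transcription machinery, held 64, 42 and 49 counts in lsm4, against 0, 2 and 4 in WT Col, at intron 4 (chr1:18630210-18630804). Its density was 10.6% ± 1.47 in lsm4 and 0.410% ± 0.477 in WT Col (SD, n = 3 each), and its log2 change 4.31 (SE 0.55, adjusted p = 0.00065). AT4G32030, also uncharacterised, had densities of 6.86%, 9.75% and 9.19% in lsm4, against 1.22%, 0.913% and 0.607% in WT Col, at intron 1 (chr4:15491287-15492352; log2 change 3.34, SE 0.43, adjusted p = 0.00065). In these 3 introns every lsm4 replicate lay above every WT Col replicate, which held for 20% of all introns with a read and a host count of at least 10.

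ZIF1, which encodes a vacuolar transporter needed for zinc tolerance, held 71, 178 and 76 counts in lsm4, against 3, 31 and 9 in WT Col, at intron 11 (chr5:4434682-4435225). The density was 8.94% ± 3.18 in lsm4 and 1.03% ± 0.349 in WT Col (SD, n = 3 each), a log2 change of 3.01 (SE 0.39, adjusted p = 0.00066). SAM1, an S-adenosylmethionine synthetase gene that is highly expressed, has a single leader intron (chr1:518379-519032) whose density stayed low in both groups. It was 0.819% ± 0.134 in lsm4 and 0.141% ± 0.0178 in WT Col (SD, n = 3 each), from 133, 133 and 103 counts against 4, 28 and 12 (log2 change 2.51, SE 0.34, adjusted p = 0.00077). Every lsm4 replicate of SAM1 lay above every WT Col replicate, at a low level in both. AT1G73600, a methyltransferase gene, rose at intron 1 with 124, 72 and 122 counts in lsm4, against 11, 59 and 30 in WT Col (log2 change 2.39, SE 0.31, adjusted p = 0.00065), an intron that holds an exon of another form of the gene.

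**Figure D4:**
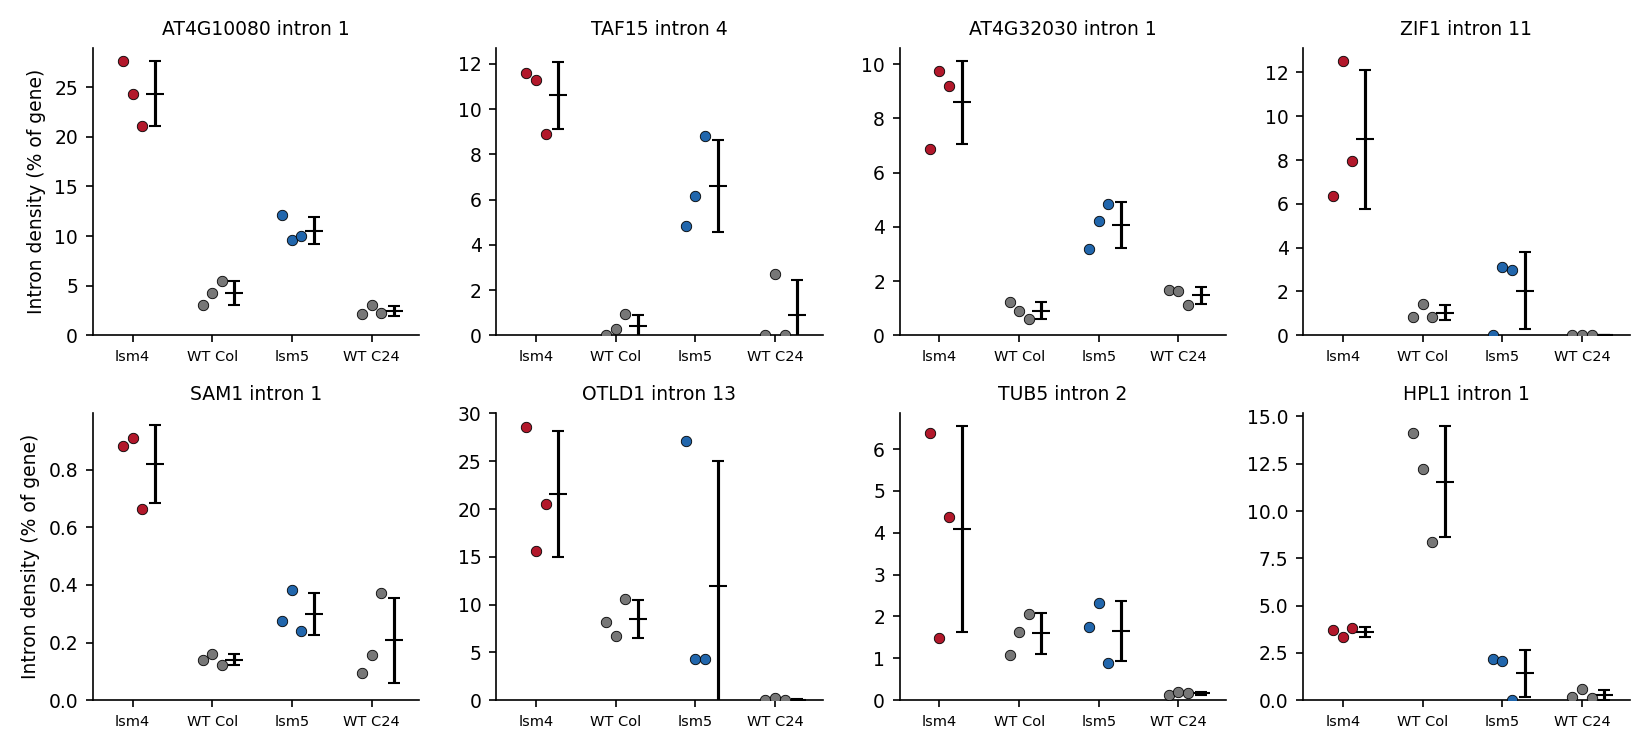
Intron density (y axis, reads per base of the intron in percent of those of its gene) of 8 long introns free of annotated exons in lsm4, WT Col, lsm5 and WT C24. Points are replicates and bars the mean ± SD (n = 3); AT4G10080 lies at 21.1% to 27.7% in lsm4 against 3.01% to 5.47% in WT Col, OTLD1 has 1 lsm5 replicate at 27.1% above the other lsm5 replicates, and HPL1 is the intron that fell in lsm4.

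Long introns that fell in lsm4 were few, and 6 of the 9 were not free of annotated exons. The exception among the 4 largest falls was the only intron of HPL1 (chr4:8835986-8837424), the hydroperoxide lyase gene of the oxylipin pathway. It held 11, 14 and 13 counts in lsm4, against 29, 92 and 47 in WT Col, and its density was 3.69%, 3.33% and 3.84% in lsm4, against 14.1%, 12.2% and 8.35% in WT Col. The log2 change was -1.65 (SE 0.37, edgeR adjusted p = 0.0085), where 0.297% of all introns tested were called lower. The gene fell as well, by 1.03 on the log2 scale (adjusted p = 0.010). In lsm5 and WT C24 the intron had 12, 10 and 0 and 2, 6 and 1 counts. TGA4, a bZIP transcription factor gene of the defence response, fell at its leader intron 10 with 18, 18 and 9 counts in lsm4, against 10, 89 and 18 in WT Col (log2 change -1.95, SE 0.42, adjusted p = 0.0073). That intron spans exons of 2 other genes, and the call was lost without WT Col 2. The other 2 of the 4 were introns of ESP, the epithiospecifier gene of glucosinolate breakdown (log2 change -1.59, adjusted p = 0.035), and of AT3G15260, a protein phosphatase 2C gene (-1.51, adjusted p = 0.036). Both overlap exons, and either call was lost without any of 4 of the 6 replicates, WT Col 2 and lsm4 1 among them.

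Members of several gene groups known for long introns were then read from the same test, with no test of the group. Their counts stand beside the 17.8% of all introns that were called higher in lsm4 and the 0.517% in lsm5. Of the 30 MIKC-type MADS-box genes listed, 27 have long introns (34 in all), and 4 of these introns were tested in lsm4. Of the 4, 1 rose (AGL16), and AGL20 (SOC1), a flowering integrator, had 16, 10 and 20 counts in lsm4, against 0, 8 and 2 in WT Col (log2 change 1.87, adjusted p = 0.072). The flowering repressors MAF1 and AGL31 (MAF2) had log2 changes of 0.06 (adjusted p = 0.96) and 1.23 (adjusted p = 0.087) at their first introns. Of the KNOX homeobox genes 1 long intron was tested, the 3676-base intron 2 of KNAT6, with 22, 31 and 25 counts in lsm4, against 2, 18 and 8 in WT Col (log2 change 1.25, adjusted p = 0.085).

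SR and RS proteins bind pre-mRNA and recruit the spliceosome, and long introns of several of their genes hold alternative exons through which they limit their own level. Of 7 tested in lsm4, 1 was called: the leader intron 1 of SCL33 rose, with 16, 17 and 19 counts in lsm4, against 0, 5 and 3 in WT Col (log2 change 2.43, SE 0.61, adjusted p = 0.015). That call was lost when centred on the median intron, and without WT Col 2 or lsm4 3. The median of the 7 was 0.31, against 0.65 over all introns. Intron 3 of SCL33, SCL30A and SCL30 had log2 changes of 0.16, 0.16 and 0.15 (adjusted p = 0.77, 0.78 and 0.79), intron 4 of RS31 had 0.46 (adjusted p = 0.33), and intron 3 of SR30 had 0.97 (adjusted p = 0.10). RS31 is well covered, with 209, 195 and 152 counts in lsm4, against 52, 239 and 120 in WT Col. In lsm5 the median of the 4 tested was -0.35, against 0.24 over all introns, and none was called by edgeR. The 3 tested introns of the other self-regulating binders (PTB1, PTB2 and a U2AF65 gene) had log2 changes of -0.27, 1.24 and -0.22, none called (adjusted p = 0.78, 0.070 and 0.68).

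Leader introns of some constitutively expressed genes are known to raise expression. Of the actin, elongation factor 1A and polyubiquitin genes listed, 3 have a long intron, and all 3 introns rose in lsm4, where 17.8% of all introns and 41.8% of tested long leader introns free of annotated exons did. The leader intron of ACT7, an actin gene of growing tissue, had 84, 60 and 43 counts in lsm4, against 4, 13 and 6 in WT Col (log2 change 1.49, SE 0.45, adjusted p = 0.034). The elongation factor 1A genes AT1G07920 and AT1G07930 had log2 changes of 2.13 (SE 0.58, adjusted p = 0.021) and 2.40 (SE 0.68, adjusted p = 0.025). Their copies are nearly identical, so the counts of host and intron are uncertain. Each of these 3 calls was lost when changes were centred on the median intron, and when WT Col 2, WT Col 3 or lsm4 1 was left out. The ACT7 call was also lost without WT Col 1 and at a mean count of at least 30. In lsm5 the 3 introns had a median log2 change of 0.86 and none was called by edgeR.

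Among the genes with heterochromatic introns, those that hold silenced transposon sequence, RPP7 (AT1G58602), a disease resistance gene of the NB-LRR class against downy mildew, stood out for its length. Its leader intron 1 of 7384 bases held 749, 957 and 846 counts in lsm4, against 198, 438 and 373 in WT Col, a log2 change of 1.73 (SE 0.26, adjusted p = 0.0013). It also spans an exon of AT1G58561, and with library size in place of the host count as offset this call was lost. Introns 2 (4420 bases) and 3 (1500 bases), both leader introns free of annotated exons, rose with log2 changes of 2.28 (SE 0.38, adjusted p = 0.0023) and 3.36 (SE 0.74, adjusted p = 0.0079). Intron 2 had 121, 79 and 81 counts in lsm4, against 20, 45 and 15 in WT Col, and intron 3 had 20, 10 and 17, against 0, 7 and 0, a call lost without lsm4 1. Intron 8, at the other end of the gene, had a log2 change of 0.21 (adjusted p = 0.81), and the gene as a whole fell by 1.03 on the log2 scale (adjusted p = 0.0030). In lsm5 and WT C24 each of these introns had 0 or 1 count, so RPP7 could not be tested there. In AT3G05410 (PPD7), whose intron 2 spans 5748 bases, the log2 change was 0.49 (adjusted p = 0.27), and in AT1G11270 it was 0.87 (adjusted p = 0.37).

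Clock, LSM ring and RNA decay genes gave 1 call in 8 tested introns, that of XRN4, a share near the 17.8% of all introns. The first introns of LCL1 and ZTL and intron 2 of ELF3 had log2 changes of 1.52, 0.99 and 0.15 in lsm4 (adjusted p = 0.056, 0.12 and 0.80). Introns of LSM6B and LSM1B, subunits of the rings themselves, had 0.13 and 0.88 (adjusted p = 0.92 and 0.29). Those of AGO1, the main slicer of microRNA pathways, had -0.37 and 0.24 (adjusted p = 0.41 and 0.73).

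In lsm5, 5 long introns rose relative to their host genes and none fell, out of 711 tested by edgeR. Over all 7151 introns tested 0.517% were called higher and 0.014% lower (0.531% in either direction), and the long introns' 0.703% lay near that background. At an unadjusted p under 0.05 there were 125 long introns (17.6%), against 12.2% of all introns, and DESeq2 called 19. The median log2 change was 0.32 over the long introns and 0.24 over all introns. Without the samples that stood apart (WT C24 2 and lsm5 3), 138 long introns were called higher and 26 lower. Without WT C24 1 or WT C24 3 none was called, without lsm5 1 or lsm5 2 the count was 1, and without WT C24 2 or lsm5 3 alone it was 16 or 34.

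The intron of AT4G10080, the most clearly raised in lsm4, rose in lsm5 as well. It had 191, 139 and 112 counts in lsm5, against 20, 71 and 29 in WT C24, and densities of 12.1%, 9.56% and 10%, against 2.15%, 3.03% and 2.21% in WT C24 (log2 change 2.08, SE 0.29, adjusted p = 0.019). Every lsm5 replicate lay above every WT C24 replicate, which held for 8.85% of all introns. With library size as offset this call was lost. OTLD1, which encodes a histone deubiquitinase, rose at intron 13, the first in the direction of transcription and a leader intron (chr2:11702707-11704056). It held 143, 24 and 33 counts in lsm5, against 0, 1 and 0 in WT C24, and 208, 176 and 167 in lsm4, against 20, 51 and 38 in WT Col. The ratio in lsm5 was 143 with an exact 95% interval of 25.3 to 5660 (adjusted p = 0.040), and lsm5 1, at a density of 27.1%, stood above lsm5 2 and 3 at 4.34% and 4.32%. In lsm4 the log2 change was 1.35 (SE 0.32, adjusted p = 0.010), a call lost when centred and without WT Col 2 or lsm4 1. TUB5, a beta tubulin gene, had 18, 29 and 21 counts in lsm5, against 2, 3 and 3 in WT C24, at intron 2 (chr1:6939065-6940084; log2 change 3.26, SE 0.59, adjusted p = 0.040). Its value in lsm4 was 1.34 (SE 0.50, adjusted p = 0.075).

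The other 2 calls in lsm5 were in introns that overlap exons. AGL16, a MADS-box gene of stomatal development, had 52, 41 and 31 counts in lsm5, against 2, 8 and 3 in WT C24, at intron 2, which holds exons of another AGL16 form (log2 change 3.04, SE 0.57, adjusted p = 0.044). In lsm4 that intron had 87, 68 and 82 counts, against 4, 21 and 20 in WT Col (1.44, SE 0.46, adjusted p = 0.041), a call lost when centred and without any of WT Col 1, WT Col 2, lsm4 1 and lsm4 3. ILA, a HEAT repeat protein gene needed for immunity, had 185, 147 and 107 counts in lsm5, against 9, 37 and 20 in WT C24, at intron 64 (log2 change 2.25, SE 0.41, adjusted p = 0.041), where AT1G64795 has an exon. Each of the 5 calls held without the samples that stood apart, which were chosen after seeing the data. Of the 5, 0 held without WT C24 1, without WT C24 3 or without lsm5 1. Without lsm5 2 the number that held was 1, and it was 1 when centred on the median intron. None of the 5 host genes was called at the gene level, where 1.51% of all genes were higher and 0.938% lower in lsm5.

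The 2 comparisons shared no samples, so their values can be set side by side. Of 631 long introns tested in both, 482 lay above 0 in lsm4 (76.4%) and 479 in lsm5 (75.9%), shares that alone would put 366 above 0 in both. There were 383 above 0 in both mutants, 99 in lsm4 only, 96 in lsm5 only and 53 in neither. The Pearson correlation of the log2 changes across these introns was 0.46 and the Spearman correlation 0.43, as a description, since introns of a sample share its depth and are not independent replicates. The 264 long introns that rose in lsm4 had a median log2 change of 2.22 there. Of these, 117 were tested in lsm5, where 109 lay above 0 (93.2%) with a median of 1.01, beside 75.5% and 0.32 over all long introns tested in lsm5 and 68.6% and 0.24 over all introns. An intron with few reads in WT C24 could enter that test only through its lsm5 reads, which favours values above 0. How many of the 117 did so was not counted, so the 93.2% describes these 117 and not the 264. Of the 117, 3 were called (AT4G10080, OTLD1 and AGL16). TAF15 is among those not called, with 16, 22 and 20 counts in lsm5, against 0, 8 and 0 in WT C24, at intron 4. Its log2 change of 2.32 (SE 0.82), above the median of 1.01, missed the threshold (adjusted p = 0.23). At intron 1 of AT4G32030 the density was 4.08% ± 0.847 in lsm5 and 1.47% ± 0.303 in WT C24 (SD, n = 3 each; log2 change 1.48, adjusted p = 0.11). The SAM1 leader intron had 31, 48 and 22 counts in lsm5, against 5, 25 and 32 in WT C24, with overlapping groups (log2 change 0.51, adjusted p = 0.79).

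**Figure D5:**
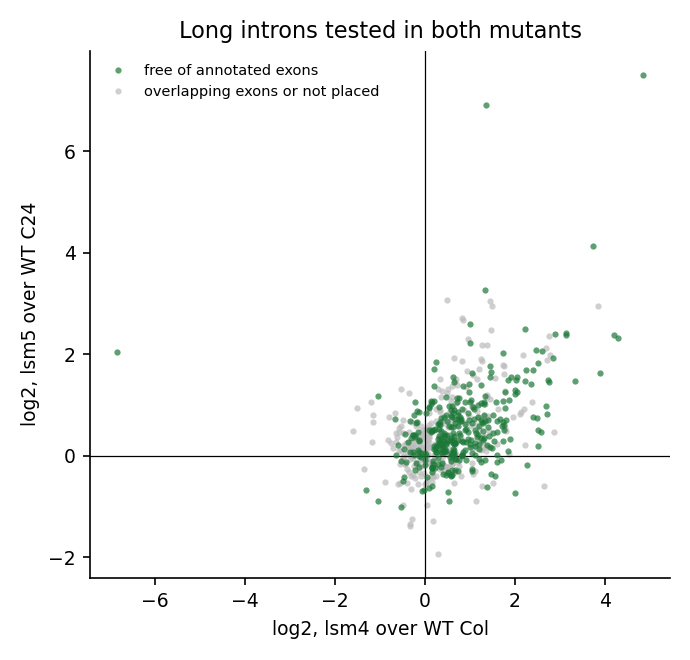
Log2 change in relative intron signal of the 631 long introns tested in both comparisons, lsm4 over WT Col (x axis) and lsm5 over WT C24 (y axis). Each point is an intron, green where it is free of annotated exons and grey otherwise; 383 points lie above 0 on both axes and 53 below 0 on both.

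A test of the difference itself, the lsm5 effect minus the lsm4 effect over all 12 samples, called 1 of 1355 long introns by edgeR and 0.0145% of all introns. At an unadjusted p under 0.05 there were 128 long introns (9.45%), against 7.88% of all introns, and DESeq2 called 3. Without lsm4 2 or lsm5 2 the count was 2, without lsm5 3 it was 3, and without all samples that stood apart it was 26. The called intron is intron 1 of AT3G26850 (chr3:9895581-9896473), which overlaps an exon of its own gene and of AT3G26840. It had 364, 313 and 448 counts in lsm4, against 17, 72 and 57 in WT Col, and 314, 491 and 430 in lsm5, against 98, 285 and 211 in WT C24. Relative to the host gene it rose in lsm4 (log2 change 2.66, SE 0.38, adjusted p = 0.0011) and had -0.59 in lsm5 (SE 0.28, adjusted p = 0.43). The difference was -3.24 (SE 0.50, adjusted p = 0.0101), and it was not called with library size or the host count plus the intron counts as offset.

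The widest long introns tested in both comparisons all overlap exons and so mix intron with other transcripts. AT4G03935 (4672 bases) and IMPL2 (4453 bases) rose in lsm4 with log2 changes of 2.70 (SE 0.60, adjusted p = 0.0084) and 1.62 (SE 0.35, adjusted p = 0.0072), and both calls were lost when centred on the median intron. AT1G33415 (5338 bases), AT5G22090 (4985 bases) and XRCC4 (4127 bases) had 0.55, 0.62 and 0.33 (adjusted p = 0.25, 0.22 and 0.46). The densest long introns in the wild types were of the same kind. Intron 1 of AT5G19150 had 656% ± 54.6 of the density of its gene in lsm4 and 552% ± 117 in WT Col (SD, n = 3 each), and intron 6 of HSD2, a steroid dehydrogenase gene, had 482% ± 107 and 516% ± 71.0, both without a call (log2 changes 0.25 and -0.10, adjusted p = 0.34 and 0.79). Just inside the width limit, the introns of 500 bases with most reads, in AT1G75860 and BTR1L, had log2 changes of -0.13 and 0.74 in lsm4. Just outside it, the introns 1 base shorter in AT2G22080 and in the elongation factor 1A gene AT5G60390 had 0.33 and 2.05.

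Bases at the splice sites were compared as a description, over introns free of annotated exons that begin with GT and end in AG. Among the 173 such long introns that rose in lsm4, 63.6% had G as the fifth base, against 50.7% of the 519 tested that did not rise and 51.0% of all long introns. Among shorter introns the share was 60.2% in those that rose and 47.3% in those tested that did not. The last 3 bases were CAG in 69.4% of the long introns that rose and 62.8% of those that did not, and the first 6 were GTAAGT in 10.4% and 7.13%. The AT content, at medians of 67.6% and 67.3%, and the G before the splice site, at 82.1% and 83.6%, were close in the long introns that rose and did not rise. Among shorter introns the G before the splice site stood at 73.7% in those that rose and 83.6% in those that did not. None of these shares was tested.

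The authors' deposited table of their own intron comparisons, with a false discovery rate up to 0.15, lists 123 long introns as higher in lsm4 (of 3024) and 104 as lower (of 1191). Of the 123, 83 were tested here and 67 called higher. Of the 104 in the authors' deposited table, 89 were tested here, with a median log2 change of -0.43, and 7 were called lower. The authors' deposited table gives log fold changes (read as log2) of 3.45 for TAF15, 2.54 for AT4G32030 and -3.30 for HPL1 in lsm4. The values relative to the host gene here were 4.31, 3.34 and -1.65. Whether the authors' values are relative to the host gene was not established, so the measures may differ. With library size as offset, 40 (TMM) and 42 (RLE) long introns were called lower in lsm4 here. The authors' deposited table also lists as lower in lsm4 introns that were not called here, with -2.10 for HSD2 intron 6, -1.36 for AGO1 intron 1 and -1.20 for SCL30A intron 3. For lsm5 the authors' deposited table lists 21 long introns as higher and 6 as lower, and 3 of the 5 calls made here are among the 21.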

How the data were processed

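Raw counts per gene and per intron were deposited by the authors as whole numbers, with 1 column for both libraries of a replicate. RNA was polyA-selected (TruSeq), per the labels' protocols. The submitters' processing notes name TAIR10, TopHat2 2.0.9, R 3.0.2 and edgeR 3.4.2 without a role; how reads were counted, and with which strand setting, is not given in the sources used here. The authors' deposited table of comparisons holds log fold changes, read as log2 although the header names no base, and p-values adjusted to a false discovery rate. No use was made of 12 per-sample columns without a label, nor of 1 unnamed intron row with 11 counts.

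Introns were tested over the whole table in R 4.3.3 with edgeR 4.0.16 (quasi-likelihood test, log host gene count as offset, filterByExpr with a minimum count of 10, host count at least 10, Benjamini-Hochberg adjustment), and the script was tested on simulated data. Gene levels used TMM scaling. Alternatives were DESeq2 1.42.0, other offsets and filters, a replicate block and leaving out each sample; the samples of the block by tag without a block were added after seeing the data. Replicates differed by a chi-square of 16.0 to 148 per degree of freedom over genes, so none agreed within sampling noise. Exon overlap, place in the gene and sequence came from RefSeq (TAIR10.1). In 88 genes the intron counts exceeded the gene count. Intervals and floors cover counting error only.

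Named per comparison were the 8 called long introns with the largest rise and the 4 with the largest fall (at least 10 counts in each sample of the higher group), the 6 with the lowest adjusted p, tested introns of the gene lists, the 5 widest and 5 densest tested in both, the called difference, and 2 introns on either side of the width limit. Members and lists were chosen with earlier results of these data known.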

Additional observations from a re-analysis of the deposited data

Results flagged for a closer look

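The change of AT3G26850 intron 1 relative to its host gene differed between the mutants by a test of the difference itself (lsm5 effect minus lsm4 effect -3.24 on the log2 scale, SE 0.50, edgeR adjusted p = 0.0101). Its density was 556%, 353% and 1020% of that of the gene in lsm4, against 89.2%, 77.0% and 139% in WT Col, and 776%, 1250% and 669% in lsm5, against 1180%, 1260% and 1610% in WT C24. Of the 4 groups WT Col alone lay low. Values above 100% mean that the stretch, which overlaps exons of 2 genes, had more reads per base than the host gene, so the host count does not bound it.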

How the results depend on the processing

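For lsm4, 273 long introns were called in either direction. The count was 464 with TMM and 448 with RLE library size as offset, 526 with a replicate block by the tag of the labels' descriptions, which keeps only samples whose tag both groups share (388 in those samples with no block), 112 when centred on the median intron, 90 at a mean count of at least 30, 177 without introns that overlap an exon, 494 and 72 with the width limit at 300 and 1000 bases, and 141 to 316 with 1 sample left out. Its median of 0.67 was 0.87 (TMM), 0.83 (RLE), 0.96 with no count filter (1.08 over all introns), 0.43 at a mean count of at least 30, 0.02 when centred and 0.82 without exon overlap, and 0.60 to 0.82 with 1 sample left out.

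For lsm5, 5 were called. The count was 15 (TMM), 12 (RLE), 19 (DESeq2), 27 with no count filter, 1 at a mean count of at least 30, 1 when centred, 3 without exon overlap, 35 with a replicate block, 25 with the block by tag (1 in its samples, without WT C24 3 and lsm5 3, with no block), 164 without the samples that stood apart (chosen after seeing the data) and 0 to 34 with 1 sample left out. Its median of 0.32 was 0.65, 0.19 and 0.08 with no filter, at a mean of at least 30 and when centred, 0.45 with the block by tag (0.43 with no block), 0.47 without the samples that stood apart and 0.30 to 0.48 with 1 left out.

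For the difference, 1 was called. The count was 21 (TMM), 18 (RLE), 3 (DESeq2), 0 with host plus intron counts as offset, 8 with no count filter, 3 with the replicate block, 13 with the block by tag (2 in its samples with no block), 26 without the samples that stood apart, 2 and 0 at width limits of 300 and 1000, 0 without exon overlap, and 1 to 3 with 1 left out. XRCC4 intron 5 (AT3G23100:I005), 0.36 in lsm5 and not called, turned to -1.28 in lsm5 and -1.44 in the difference without the samples that stood apart. The cause of these shifts was not tested.

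The ratio of summed long intron reads, 0.996 in lsm4, was 1.18 without the 10 introns of most reads, 1.24 at 300 bases, 3.5 by median density and 0.935 to 1.08 with 1 sample left out. In lsm5, 1.05 became 1.16, 1.17 without exon overlap, 3.67 by median density and 1.02 to 1.07. For introns free of annotated exons, median density gave 4.55 in lsm4 (sum 1.55; 1.43 to 1.62 with 1 left out) and 4.78 in lsm5 (1.34; 1.26 to 1.39). These 2 ratios rest on wild type medians at or near the floor, at 0%, 0.814% and 0.496% in WT Col and 0%, 0.329% and 0.144% in WT C24. The value of 0% belongs to the shallowest sample of each group, so the ratios are no measure of fold change. The share of long introns with a read was 85.2% to 89.4% in lsm4, against 50.9% (WT Col 1, the shallowest) to 79.3% (WT Col 2, the deepest) in WT Col. It was 71.3% to 73.6% in lsm5, against 48.8% (WT C24 1) to 63.6% (WT C24 2) in WT C24.

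Replicate numbers share only a number: samples of the same number correlated at -0.11, -0.10 and 0.18 in the lsm4 comparison and at -0.17, 0.35 and 0.35 in the lsm5 comparison. The block gave 219 calls in lsm4, against 273. Of the 31 named introns called in lsm4, 30 kept the call with each of TMM, RLE, DESeq2 and the block (under which ACT7 intron 1 lost it), 21 when centred and 19 to 30 with 1 sample left out.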

Other observations

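Long introns of 2 genes stood at the edges of the plot of both mutants and were chosen after their values were seen. Intron 2 of SFP1, a sugar transporter gene known from ageing leaves (1144 bases, free of annotated exons), had 69, 57 and 54 counts in lsm4, against 0, 2 and 0 in WT Col (log2 change 4.86, edgeR adjusted p = 0.0015), and 40, 23 and 12 in lsm5, against 0, 0 and 0 in WT C24 (adjusted p = 0.074). Intron 3 of ACD6, an ankyrin repeat gene of the defence response (1469 bases), had 0 counts in each lsm4 replicate, against 8, 21 and 62 in WT Col (adjusted p = 0.54), and 87, 89 and 28 in lsm5, against 9, 22 and 9 in WT C24 (log2 change 2.04, adjusted p = 0.099).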
